A study of Mus musculus with 118 samples.

Results

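The genes described here encode the ligands and receptors of the classical axon guidance systems. The 46 members were taken by gene symbol, under a rule that uses no measured value. They comprise 21 ligands (8 ephrins, 3 Slits, 3 netrins and 7 class 3 semaphorins) and 25 receptors (14 Eph receptors, 4 Robo receptors, 5 netrin receptors and 2 neuropilins), out of 26180 genes with a curated RefSeq transcript. All 46 were found in the annotation.

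The study mapped Polycomb proteins in mouse embryonic stem cells (ESCs) by cChIP-seq, a form of ChIP-seq calibrated with a spike-in of human HEK293T cells for these proteins. There were 118 samples in 42 groups. The values used were 3 peak lists from untreated cells, for RING1B, SUZ12 and PCGF2, and they answer where these proteins sat at guidance genes before tamoxifen. The RING1B and SUZ12 lists combine the PRC1CPM and PRC1CKO lines, and the PCGF2 list comes from PRC1CPM alone, with 3 untreated samples for PCGF2. The RING1B samples of PRC1CKO are not among the 118, and the paper took them from an earlier study. PRC1CPM is 1 clone (41) of E14 cells with Ring1b(WT->I53A/D56K)fl/fl and a constitutive Ring1aI50A/D53K besides Rosa26::ERT2-Cre, so that RING1A lacked catalytic activity even without tamoxifen while RING1B was wild-type. PRC1CKO is 1 clone (B9) with Ring1a-/-, Ring1bfl/fl and Rosa26::ERT2-Cre, and lacked RING1A throughout. In untreated cells of both lines RING1B was therefore the active E3 ligase of PRC1. Samples treated with tamoxifen for 72 hr were not analysed here, and neither were expression levels, so no ESC marker could be checked.

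The lists hold 18643 RING1B, 7438 SUZ12 and 3680 PCGF2 peaks, each given as a start and an end on mm10. They carry no height, p-value, read depth or replicate. The error between cultures is therefore unknown, and intervals given below treat genes as independent and cover counting error only. A peak in such a list also does not tell in what share of cells or alleles the protein was bound.

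PRC1, the first of the Polycomb repressive complexes, is built on RING1A or RING1B and mono-ubiquitylates histone H2A. PRC2, of which SUZ12 is a core subunit, methylates histone H3 at lysine 27. PCGF2 is a subunit of canonical PRC1, the form that also contains a CBX protein able to bind the PRC2 mark. Variant PRC1, which holds RYBP or YAF2 rather than a CBX protein, can contain PCGF2 as well. In ESCs the Polycomb system is best known for holding developmental genes, including many genes of the nervous system, in a repressed state, and it is found mostly at CpG islands. Guidance molecules steer growing axons. Ephrins are membrane-bound ligands of the Eph receptor tyrosine kinases, Slits repel axons through Robo receptors, netrins attract through DCC and repel through UNC5 receptors, and secreted class 3 semaphorins act through neuropilins paired with plexins.

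The DNA in front of 4 members gives examples of promoters with and without peaks in this group. The 250 bases upstream of the transcription start site (TSS) with most curated transcripts are printed 5′ to 3′ on the strand of the gene, from the mm10 reference, with each CG dinucleotide in capitals. Here and below, where TSSs of a gene tied for most transcripts, the most 5′ of them was taken. Ntn1 and Nrp2 were the ligand and the receptor with the widest RING1B peak among members with all 3 proteins. Efna4 had the widest RING1B peak among members without SUZ12 and PCGF2, and Sema3g had no peak. None of these windows overlaps an annotated exon. Robo4, the other member without a peak, was passed over because its window does.
Ntn1, chr11:68386827-68387076, minus strand: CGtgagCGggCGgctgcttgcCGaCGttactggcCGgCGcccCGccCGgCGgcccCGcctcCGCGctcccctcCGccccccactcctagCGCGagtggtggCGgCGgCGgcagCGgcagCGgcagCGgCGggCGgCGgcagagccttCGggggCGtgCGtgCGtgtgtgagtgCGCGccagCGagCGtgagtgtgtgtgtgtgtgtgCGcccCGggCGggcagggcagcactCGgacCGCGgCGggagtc
Nrp2, chr1:62703067-62703316, plus strand: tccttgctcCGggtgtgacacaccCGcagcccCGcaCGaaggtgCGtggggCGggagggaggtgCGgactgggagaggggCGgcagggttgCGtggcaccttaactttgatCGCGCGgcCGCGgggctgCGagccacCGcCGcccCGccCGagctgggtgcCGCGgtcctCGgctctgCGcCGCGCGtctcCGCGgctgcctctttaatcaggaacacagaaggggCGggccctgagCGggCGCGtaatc
Efna4, chr3:89338029-89338278, minus strand: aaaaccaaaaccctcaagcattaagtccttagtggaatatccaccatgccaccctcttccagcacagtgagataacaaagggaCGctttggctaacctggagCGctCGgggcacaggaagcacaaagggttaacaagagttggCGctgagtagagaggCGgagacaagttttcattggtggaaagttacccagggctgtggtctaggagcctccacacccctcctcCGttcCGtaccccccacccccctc
Sema3g, chr14:31217623-31217872, plus strand: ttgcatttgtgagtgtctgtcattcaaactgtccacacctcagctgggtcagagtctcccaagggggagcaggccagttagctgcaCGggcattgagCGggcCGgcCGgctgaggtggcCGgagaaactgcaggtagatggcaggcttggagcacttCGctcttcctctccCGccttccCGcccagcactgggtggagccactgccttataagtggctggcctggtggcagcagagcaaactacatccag
The Ntn1 window held 40 CG dinucleotides and that of Nrp2 held 32. The Efna4 and Sema3g windows held 7 and 8. CpG observed/expected, the number of CG dinucleotides relative to that given by the C and G content, was 1.04 for Ntn1, 0.985 for Nrp2, 0.383 for Efna4 and 0.352 for Sema3g. Over the 1 kb around its TSS, Efna4 had a higher value, 0.602.

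Polycomb proteins were listed at nearly every guidance gene. A promoter was taken as a curated TSS plus or minus 2500 bp, and a gene counted as having a peak if at least 1 bp of a peak lay in the window of any of its TSSs. RING1B peaks were present at 44 of 46 members (95.7%, 95% Wilson interval 85.5 to 98.8), against 53.2% of all genes. SUZ12 peaks were present at 40 members (87.0%, 74.3 to 93.9), against 24.8% of all genes. PCGF2 peaks were present at 32 members (69.6%, 55.2 to 80.9), against 13.5% of all genes. The same 32 members had all 3 proteins, against 13.4% of all genes. All genes include genes without a coding transcript, whereas every member has one. Over 21000 genes with a curated coding transcript the shares were 58.5% for RING1B, 27.2% for SUZ12, 14.5% for PCGF2 and 14.5% for all 3.

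Counted by gene, the lists were nested. Every member with PCGF2 had SUZ12, and every member with SUZ12 had RING1B. The same held for most genes at large, since 6410 of 6487 genes with SUZ12 had RING1B and 3508 of 3522 genes with PCGF2 had the other two. Of the 44 members with RING1B, 40 had SUZ12 (90.9%, 78.8 to 96.4), against 6410 of all 13922 genes with RING1B. Of those 40, 32 had PCGF2 (80.0%, 65.2 to 89.5), against 54.7% of all genes with RING1B and SUZ12. The members with RING1B and SUZ12 but no PCGF2 were Efna1, Efnb3, Sema3b, Sema3e, Epha10, Ephb3, Ephb4 and Robo1. RING1B alone was present at Efna4, Epha1, Epha2 and Ephb6, and no peak lay at the promoters of Sema3g and Robo4. No promoter peak was shared between 2 members, so the counts rest on 46 separate RING1B peaks, 41 SUZ12 peaks and 32 PCGF2 peaks.

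Ligands and receptors did not differ by more than counting error in any list. RING1B was present at 20 of 21 ligands and 24 of 25 receptors, a difference of -0.76 percentage points (95% Newcombe interval -19.0 to 15.3). SUZ12 was present at 19 ligands and 21 receptors, a difference of 6.48 points (-15.2 to 26.4). PCGF2, and all 3 proteins together, were present at 15 ligands and 17 receptors, a difference of 3.43 points (-22.6 to 28.0). With so few genes the intervals allow a difference of over 20 points in either direction for PCGF2.

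**Figure D1:**
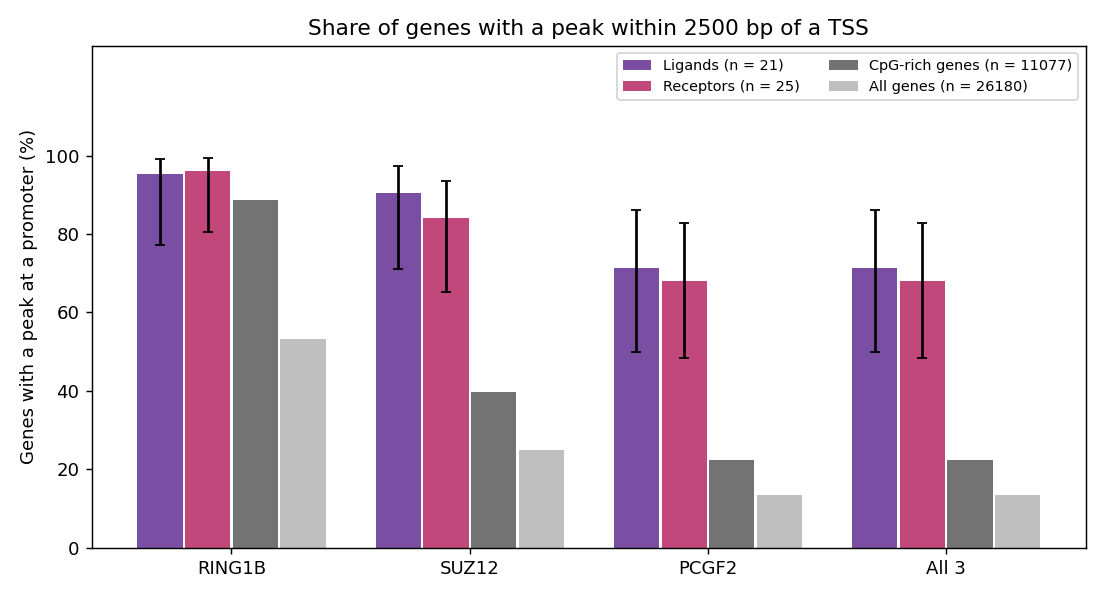
Share of genes with a peak within 2500 bp of a TSS (y axis, percent) for each list and for all 3 lists together, in 21 ligands, 25 receptors, 11077 genes with a CpG-rich promoter and all 26180 genes. Error bars are 95% Wilson intervals over genes and overlap between ligands and receptors in every list, while both lie above the bars of all genes.

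The families differed in how many of their genes had PCGF2, with few genes behind each count. All 3 Slits, all 3 netrins, all 5 netrin receptors and both neuropilins had all 3 proteins. Of the 8 ephrins, 8 had RING1B, 7 had SUZ12 and 5 had PCGF2. Of the 14 Eph receptors, 14 had RING1B, 11 had SUZ12 and 8 had PCGF2 (57.1%, 32.6 to 78.6). PCGF2 was present at 6 of 9 EphA genes (35.4 to 87.9) and 2 of 5 EphB genes (11.8 to 76.9). Of the 7 class 3 semaphorins, 6 had RING1B, 6 had SUZ12 and 4 had PCGF2. Among the 4 Robo genes the counts were 3, 3 and 2.

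Among the ephrin ligands, Efna3 and Efna5 had the widest peaks. The Efna5 promoter carried peaks of 8672 bp for RING1B, 8689 bp for SUZ12 and 8407 bp for PCGF2. Efna3 had peaks of 9268, 8174 and 4789 bp in the same order. The 3 intervals were thus of similar width at Efna5, whereas the PCGF2 interval at Efna3 was the shortest of the 3. Efnb2, a ligand best known from arteries and the hindbrain, had peaks of 3720, 3685 and 2412 bp. Efna2 had peaks of 3152, 3595 and 1530 bp. The narrowest RING1B peak of the family lay at the X-linked gene Efnb1, with 2291 bp for RING1B, 1466 bp for SUZ12 and 1367 bp for PCGF2. The other 3 ephrins lacked PCGF2. Efna1 had 5325 bp of RING1B and 3624 bp of SUZ12, Efnb3 had 4704 and 1514 bp, and Efna4 had 3257 bp of RING1B only.

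The Slits and netrins, the secreted cues of the midline, all carried the 3 proteins. Slit2 had peaks of 5657 bp for RING1B, 5622 bp for SUZ12 and 4585 bp for PCGF2. Slit3 had peaks of 3881, 4789 and 3119 bp. At Slit1 they were 3443, 5454 and 1479 bp. Slit1 was therefore the Slit with the narrowest RING1B and PCGF2 peaks, but not the narrowest SUZ12 peak. The widest domain of all members was at Ntn1, which encodes the netrin that attracts commissural axons. Its RING1B peak spanned chr11:68381196-68403149, 21954 bp, and ranked 75 by width in the list of 18643. The SUZ12 and PCGF2 promoter peaks at Ntn1, of 12753 and 10282 bp, were also the widest among members. Further SUZ12 and PCGF2 peaks, upstream of the promoter window, overlapped the same RING1B peak. With all of them counted, 97.0% of its base pairs lay in SUZ12 peaks and 74.5% in PCGF2 peaks. Unlike most members, Ntn1 had most of its RING1B peak upstream of the TSS, with 16323 bp upstream and 5630 bp downstream. Ntn3 had peaks of 8629, 8298 and 5085 bp, and the TSS of Tbc1d24 lay within its RING1B and SUZ12 peaks, so those peaks cannot be assigned to Ntn3 alone. Ntn4, a netrin of basement membranes, had peaks of 5511, 6412 and 4014 bp.

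The class 3 semaphorins had the lowest median RING1B width among the families, 2273.5 bp over the 6 genes with a peak. Sema3f was the exception, with 7144 bp for RING1B, 6715 bp for SUZ12 and 3829 bp for PCGF2. Sema3a, the prototype repellent of the class, had 2027, 1980 and 1776 bp. Sema3c, best known from the cardiac outflow tract, had 2520, 3560 and 2439 bp. Sema3d had 2701, 3106 and 1465 bp. Sema3a, Sema3c and Sema3d each had a narrower RING1B peak than any Slit or netrin. Sema3e, which can signal through a plexin without a neuropilin, had 1786 bp of RING1B and 1365 bp of SUZ12. At Sema3b the proteins lay apart. Its RING1B peaks of 522 and 1506 bp lay at and upstream of its most 5′ TSS, which tied for most transcripts. The single SUZ12 peak, of 553 bp at chr9:107605468-107606020, lay 3221 bp from that TSS and covered another, more 3′ TSS of the gene. Sema3b was the only member with SUZ12 in which 0% of the RING1B base pairs lay in a SUZ12 peak.

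Among Eph receptors, Epha7 had the widest RING1B peak. Its peaks measured 6702 bp for RING1B, 6219 bp for SUZ12 and 6099 bp for PCGF2. Epha5 had 5450, 5403 and 4469 bp. Both receptors bind ephrin-A ligands in topographic mapping, and at both the 3 peaks were of similar extent. Ephb1 had 5725, 6163 and 3727 bp. Epha8 had 4981, 5713 and 1741 bp. The PCGF2 peak of Epha8 covered 35.0% of its RING1B base pairs, the lowest share among members with all 3 proteins. Epha6 had 3998, 5143 and 3321 bp, Epha3 had 3676, 4414 and 2862 bp, and Ephb2 had 3683, 4558 and 2016 bp. The RING1B peaks of these 3 receptors were similar in width. Epha4, a receptor for ephrins of both classes, was the only member with PCGF2 as its widest interval. It had 2 RING1B peaks, of 3384 and 344 bp, a PCGF2 peak of 3761 bp and 2 SUZ12 peaks, of 1178 and 841 bp, which lay on either side of the TSS.

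The 6 Eph receptors without PCGF2 fell into those with and without SUZ12. Epha10, which is thought to lack kinase activity, had wide peaks of 6039 bp for RING1B and 7836 bp for SUZ12. Its nearest PCGF2 peak lay 3536 bp from the TSS, outside the promoter window but overlapping 18.9% of the RING1B base pairs. Ephb4, known from venous endothelium, had 4712 bp of RING1B and 957 bp of SUZ12, and Ephb3 had 1855 and 916 bp. The SUZ12 peaks of Ephb3 and Ephb4 began 40 and 114 bp downstream of the TSS. The receptors with RING1B alone had peaks of 673 bp (Epha1), 1465 bp (Epha2) and 1925 bp (Ephb6). Taking the widest RING1B peak of each gene, Epha1 had the narrowest among members. Their nearest SUZ12 peaks lay 21183, 53114 and 61190 bp from a TSS.

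All 5 netrin receptors and both neuropilins carried the 3 proteins. Unc5b had peaks of 9200 bp for RING1B, 7034 bp for SUZ12 and 6903 bp for PCGF2. Unc5c had 6088, 6870 and 4760 bp. Unc5d had 4776, 5651 and 3788 bp. The UNC5 proteins mediate the repulsive response to netrin. Unc5a had 4184 bp of RING1B, 10561 bp of SUZ12 and 2423 bp of PCGF2. There the SUZ12 peak ran to 8309 bp downstream of the TSS and so reached over a separate intronic RING1B peak of 3623 bp. Dcc, the attractive netrin receptor, had 3550, 2567 and 3043 bp. The neuropilins, the ligand-binding subunits of class 3 semaphorin receptors, had some of the widest domains. Nrp2 had 9762, 9845 and 7702 bp, with its RING1B peak at chr1:62701180-62710941 the widest among receptors. Nrp1 had 7815, 7912 and 5818 bp, in peaks that also held the TSS of the microRNA gene Mir1903.

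The Robo genes ranged from wide domains to none. Robo3, which controls midline crossing, had peaks of 7548 bp for RING1B, 8362 bp for SUZ12 and 5835 bp for PCGF2. Robo1 had 2366 bp of RING1B and 1500 bp of SUZ12, with no PCGF2. Robo4, known from endothelial cells, had no peak, and its nearest RING1B and SUZ12 peaks lay 16251 and 16651 bp from the TSS. Robo2 had peaks of 4749, 5121 and 4498 bp, but only at the most 3′ of its 3 TSSs (position 74411825 of chromosome 16). From its TSS with most transcripts the nearest RING1B peak was a different one, 500028 bp away.

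**Figure D2:**
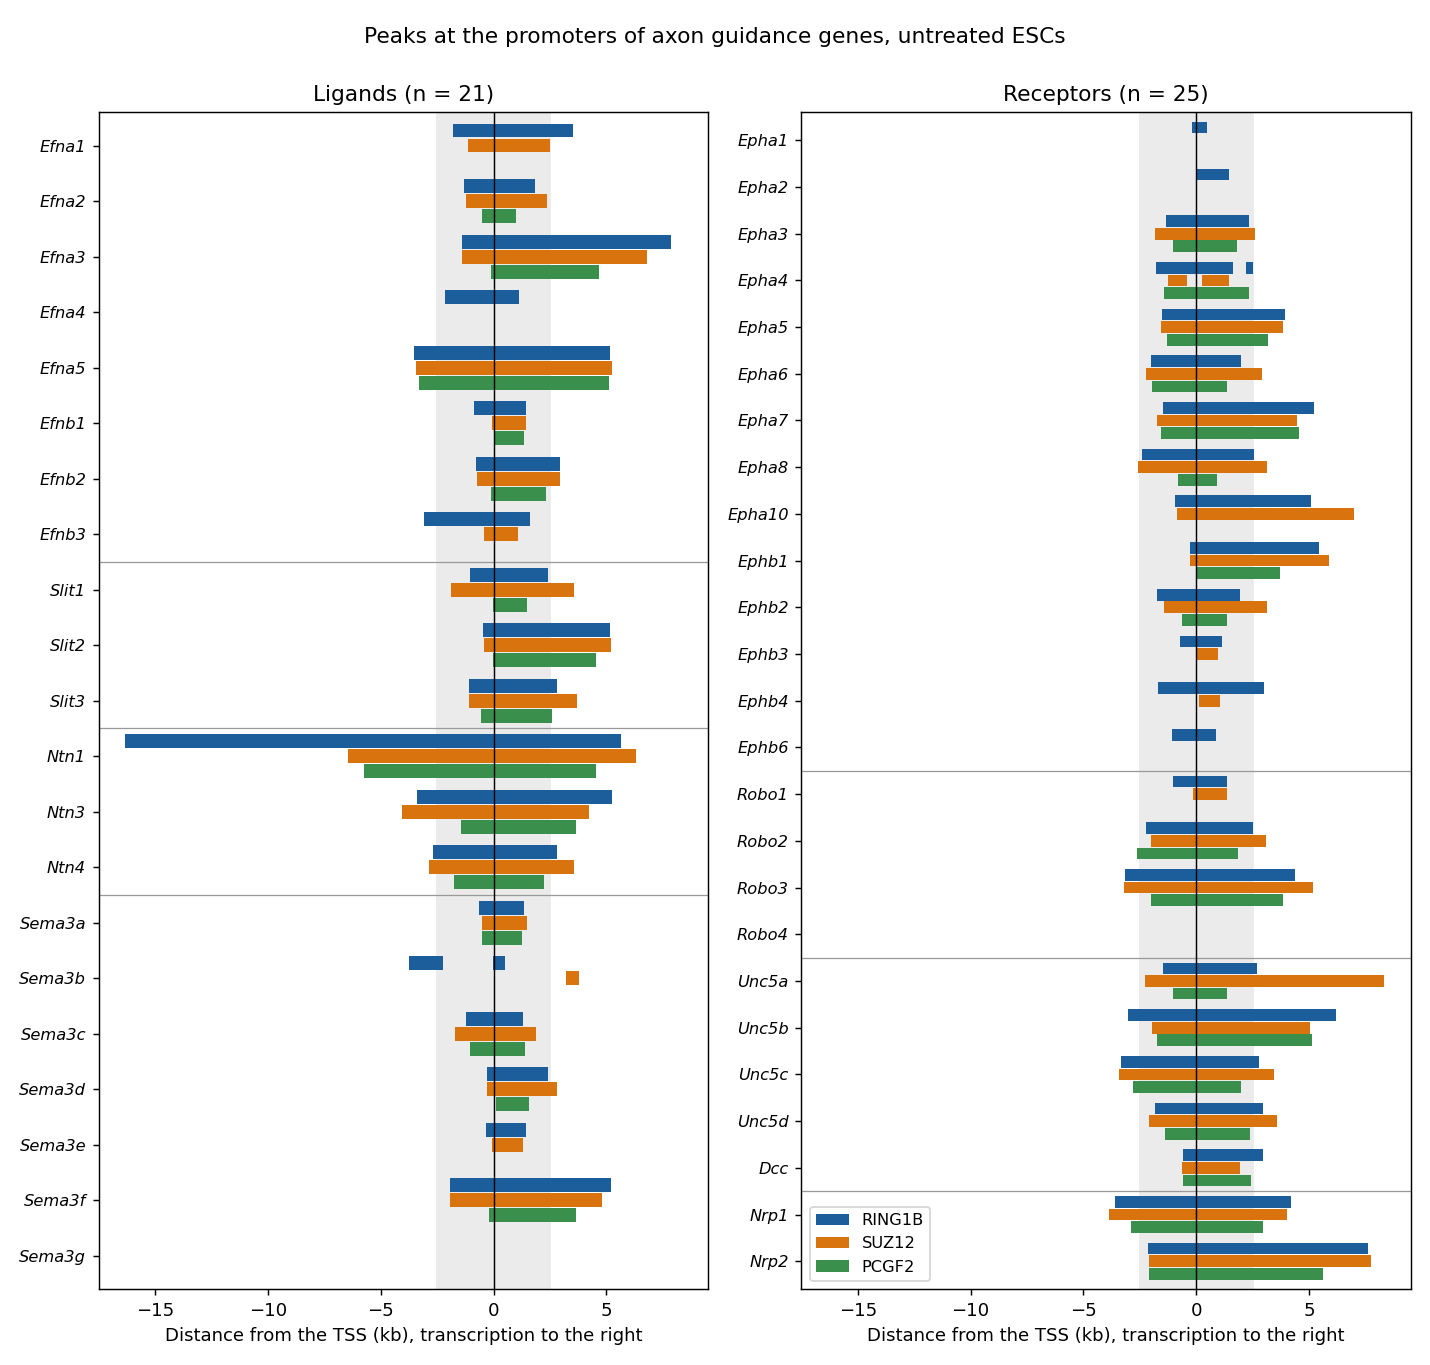
Peaks of RING1B, SUZ12 and PCGF2 at the promoters of the 21 ligands and 25 receptors, drawn to scale as distance in kb from the curated TSS nearest to a RING1B peak (x axis), with the promoter window of 2500 bp on each side shaded and families divided by lines. Ntn1 shows the widest domain, and the rows of Robo4 and Sema3g are empty.

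Member RING1B and SUZ12 peaks had wider medians than those of genes at large. Medians were compared within a list. Calling rules differed between lists, and widths of different lists set side by side at a gene describe the deposited intervals, to which those rules apply. The widest RING1B promoter peak had a median of 4444 bp over the 44 members with one (95% interval of the median 3550 to 5450), against 1810 bp over 13922 genes. It exceeded the upper quartile of all genes (3375 bp) in 31 members of 44. In 19 members (43.2%, 29.7 to 57.8) it lay in the widest 10% of the list, against 15.6% of all genes with a RING1B promoter peak. For SUZ12 the median was 5273 bp (3624 to 6219) over 40 members, against 3232 bp over 6487 genes. For PCGF2 it was 3774.5 bp (2439 to 4760) over 32 members, an interval that holds 2912 bp, the median over 3522 genes. Fewer members exceeded the upper quartile of all genes in these lists, 15 of 40 for SUZ12 (5860 bp) and 10 of 32 for PCGF2 (4735 bp).

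Receptors had wider median peaks than ligands in each list, but the distributions overlapped throughout. For RING1B the medians were 3800.5 bp in ligands (2701 to 5657) and 4730.5 bp in receptors (3550 to 6039). Of 20 ligands, 8 exceeded the receptor median, and of 24 receptors, 15 exceeded the ligand median. For SUZ12 the medians were 3685 bp (1980 to 6715) and 5651 bp (4414 to 7034), and for PCGF2 they were 3119 bp (1530 to 4789) and 3788 bp (3043 to 5818). Ligand minus receptor, the difference in medians was -930 bp for RING1B, -1966 bp for SUZ12 and -669 bp for PCGF2. Bounds set from the 2 intervals ran from -3338 to 2107 bp, from -5054 to 2301 bp and from -4288 to 1746 bp. They hold 0 in each list, and no test of the difference was made.

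**Figure D3:**
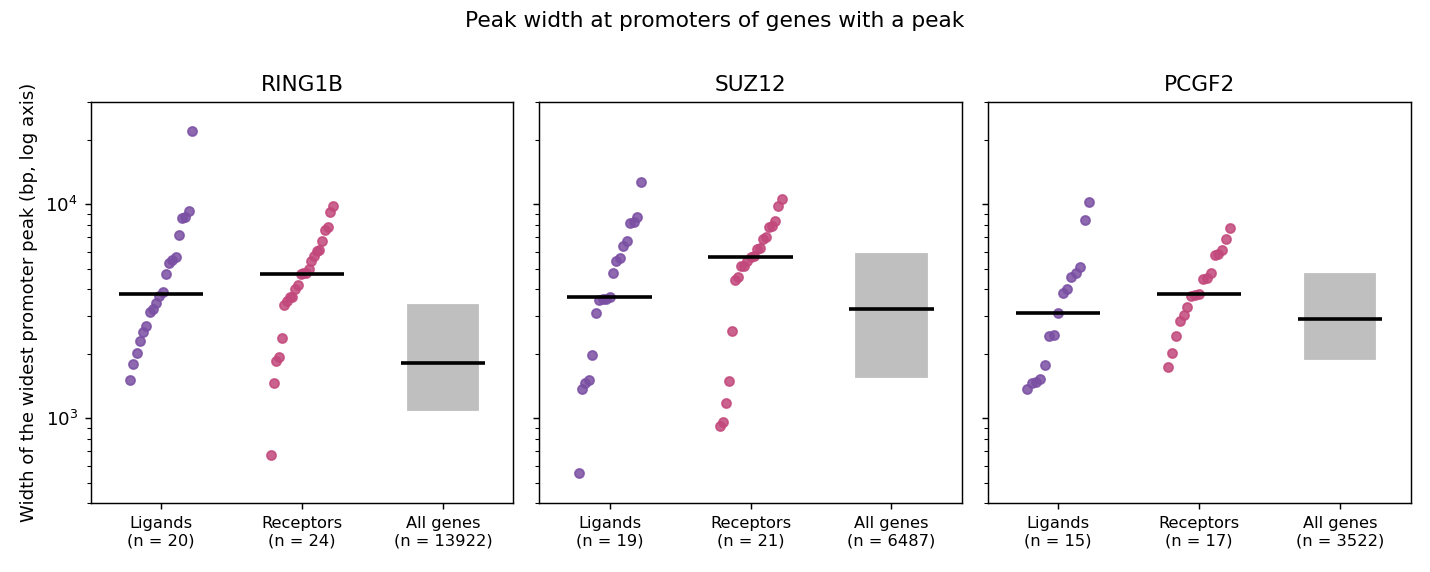
Width in bp (log axis) of the widest promoter peak of each ligand and receptor with a peak, 1 point per gene, with the median as a black line, and for all genes with a peak the quartiles as a grey box and the median. In the RING1B panel most points lie above the grey box, and ligands and receptors cover overlapping ranges in all 3 panels.

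RING1B peaks were narrower in members with fewer of the proteins. Members with all 3 had a median RING1B width of 4878.5 bp (2027 to 21954 over 32 genes). Members with RING1B and SUZ12 had a median of 3535 bp (1506 to 6039 over 8 genes). The 4 members with RING1B alone had a median of 1695 bp (673 to 3257). The ranges of the 3 groups overlapped.

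Most RING1B domains reached further into the gene than upstream of it. Taking for each gene the curated TSS nearest to a RING1B peak, the widest RING1B peak covered it in 43 of 44 members, the exception being Sema3b, and in 12304 of 13922 genes. The TSS with most transcripts lay in a RING1B peak in 42 members. It extended further downstream than upstream in 37 of these 43 (86.0%, 72.7 to 93.4), against 63.7% of 12304 such peaks over all genes. The median extent was 1491 bp upstream and 2776 bp downstream. It did so in 16 of 19 ligands and 21 of 24 receptors. The 6 members with a longer upstream part were Efna4, Efnb3, Ntn1, Epha4, Ephb6 and Unc5c.

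Within the domains, SUZ12 covered nearly all of RING1B where PCGF2 was also present. In the 32 members with all 3 proteins, a median of 98.9% of RING1B base pairs at the promoter lay in SUZ12 peaks (54.2% at Epha4 to 100%), close to the 98.9% found over all genes with the 3 proteins. In the 8 members with RING1B and SUZ12 the median was 56%, from 0% at Sema3b to 98.3% at Epha10. PCGF2 covered a median of 76.2% of RING1B base pairs in members with all 3 (35.0% to 96.9%), against 64.3% over all genes with the 3 proteins. The SUZ12 peak was wider than the RING1B peak in 20 of 40 members (50.0%, 35.2 to 64.8), against 50.8% of 6410 genes, in 7 of 19 ligands and 13 of 21 receptors. PCGF2 was wider than RING1B in 1 of 32, against 1.11% of all genes with both.

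Further peaks overlapped the transcribed span of members outside their promoter windows. RING1B had 23 such peaks in 15 of 46 members, with a median width of 1848 bp, against 9.40% of all genes with such a peak. SUZ12 had 8 in 7 members, against 3.70% of all genes, and PCGF2 had 4 in 3 members, against 1.61%. The members were long genes, with a median of 110 kb against 13.5 kb over all genes, and the part of length in these counts was not tested. Of the 23 RING1B peaks, 6 ran past the end of the gene or lay within 2500 bp of a TSS of another gene. The peak at Efna1, for example, lay near Dpm3 and Slc50a1, and a peak in Nrp2 near 4930487H11Rik. The widest RING1B peak of this kind was in Efna2, where RING1B, SUZ12 and PCGF2 peaks of 7666, 5688 and 2812 bp overlapped exons at the 3′ part of the gene and ran past its end, and the RING1B peak there was wider than the 3152 bp at the promoter. In Epha10, peaks of 5857, 6396 and 2290 bp lay within the gene, with the middle of the RING1B peak 12957 bp from the TSS, near a TSS of 1700125G02Rik. Sema3g, without a promoter peak, held 2 RING1B peaks in its body, of 634 and 2318 bp, the first of them 3233 bp from the TSS and so just outside the window.

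Neighbouring members could differ. Efna1, Efna3 and Efna4 lie together on chromosome 3, and had RING1B with SUZ12, all 3 proteins and RING1B alone. The Efna3 and Efna4 TSSs are 15.1 kb apart. Robo3, with all 3 proteins, lies 31.2 kb from Robo4, with none. Sema3f, with all 3, lies 101234 bp from Sema3b, which lacked PCGF2. Epha8 and Ephb2, 121 kb apart on chromosome 4, both had all 3.

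The CpG content of member promoters was high. Within 2500 bp on each side of the TSS with most transcripts, the median CpG observed/expected was 0.461 in members, against 0.326 over all genes, with 0.468 in ligands and 0.454 in receptors. The values that follow are from a narrower window, chosen after the data were seen. Over 1 kb around the same TSS, the median CpG observed/expected was 0.693 in members (quartiles 0.572 and 0.80), against 0.514 over all genes (0.218 and 0.761), with 0.676 in ligands and 0.699 in receptors. A CpG-rich promoter, with an observed/expected of at least 0.6 and at least 50% GC, was found at 31 of 46 members (67.4%, 53 to 79.1), against 42.3% of all genes. It was found in 14 of 21 ligands and 17 of 25 receptors, a difference of -1.33 points (-27.3 to 24.0).

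The shares were also compared within classes of base composition. All 31 CpG-rich members had RING1B (lower 95% bound 89.0%), near the 88.6% of CpG-rich genes in general. For SUZ12, 28 of 31 CpG-rich members had a peak (90.3%, 75.1 to 96.7), against 39.7% of CpG-rich genes, and for PCGF2, 23 of 31 had one (74.2%, 56.8 to 86.3), against 22.4%. Among the 15 members without a CpG-rich promoter, 13 had RING1B (86.7%, 62.1 to 96.3), against 27.2% of such genes. SUZ12 was present at 12 of these 15, against 13.8%, and PCGF2 at 9, against 6.87%. The difference from other genes of the same class was thus found in both classes for SUZ12 and PCGF2, and for RING1B in the class without a CpG-rich promoter. The class was set at the TSS with most transcripts, whereas peaks were counted at any TSS. Sema3f, with 0.500 there, had 0.820 at another TSS within its peaks. Epha3, with 0.726, missed the class only through its GC content of 49.8%. Composition was not matched within a class, so these shares do not compare genes of equal CpG content.

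The members without peaks had a low CpG content. Robo4 and Sema3g had an observed/expected of 0.153 and 0.164. The median was 0.640 in members with RING1B alone, 0.646 with RING1B and SUZ12, and 0.755 with all 3, and the ranges of these groups overlapped. Over all genes the medians in the same groups were 0.744, 0.706 and 0.715, against 0.22 in genes with no peak. Low values also occurred with peaks present. Sema3b had 0.172 with RING1B and SUZ12, and Sema3a had 0.0684 at the TSS that leads its annotation, whereas its TSSs within the peaks had 0.605 and 0.712.

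**Figure D4:**
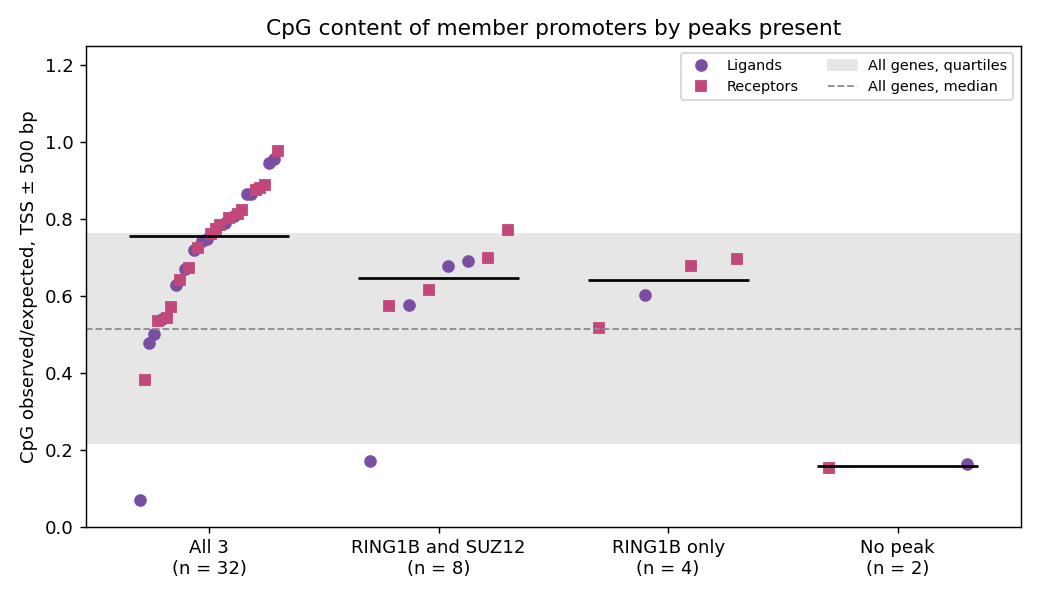
CpG observed/expected in the 1 kb around the TSS with most transcripts (y axis) for each member, grouped by the peaks at its promoters, with circles for ligands, squares for receptors, black lines for group medians, and the quartiles and median of all genes in grey. Both members without a peak lie below 0.2, and the low circle among members with all 3 is Sema3a.

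The E-box letters CACGTG, which can be bound by MAX and MGA, the DNA-binding partners of PCGF6 in a variant PRC1, were looked for in the 300 bp from 250 bp upstream to 50 bp downstream of the TSS. The motif reads the same on both strands. It was present at Sema3e, Epha8 and Unc5d, 3 of 46 members (6.52%, 2.24 to 17.5), near the 7.78% of all genes.

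Pooled shares in other genes of the pathway were lower than in members in each list. Of 48 plexins, other semaphorins, other guidance molecules and intracellular mediators, RING1B was present at 42 (87.5%, 75.3 to 94.1), SUZ12 at 37 (77.1%, 63.5 to 86.7) and PCGF2 at 22 (45.8%, 32.6 to 59.7). These intervals overlapped those of the members in each list. Such overlap does not show that the shares were alike, and no interval of the difference was computed. The shares over all genes were 53.2%, 24.8% and 13.5%. The 9 plexins, the signalling receptors for semaphorins, had RING1B and SUZ12 in 7 and PCGF2 in 4, with the widest RING1B peak at Plxnc1 (7784 bp) and none at Plxna3 and Plxnb3. Of 13 membrane-bound or anchored semaphorins, 12 had RING1B, 11 had SUZ12 and 6 had PCGF2, with the widest peak at Sema5b (8752 bp) and none at Sema4a. Of 12 other guidance molecules, 10 had RING1B, 10 had SUZ12 and 8 had PCGF2, with the widest peak at Ntng2 (11344 bp) and none at Ntn5 and Flrt1. Their SUZ12 and PCGF2 shares, 83.3% and 66.7%, were close to the 87.0% and 69.6% of members. The 14 intracellular mediators had RING1B in 13, SUZ12 in 9 and PCGF2 in 4 (28.6%, 11.7 to 54.6). The upper end of that PCGF2 interval lay just below the lower end of the one of the members, 55.2 to 80.9. With the narrowest 25% of each list left out, PCGF2 was present at 28 members, and the mediators were not recounted. Of the mediators, 12 had a CpG-rich promoter, and 22.4% of all CpG-rich genes had PCGF2. Among the mediators Trio, an exchange factor for small GTPases, had the widest RING1B peak (6421 bp), and Srgap3 had none.

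**Figure D5:**
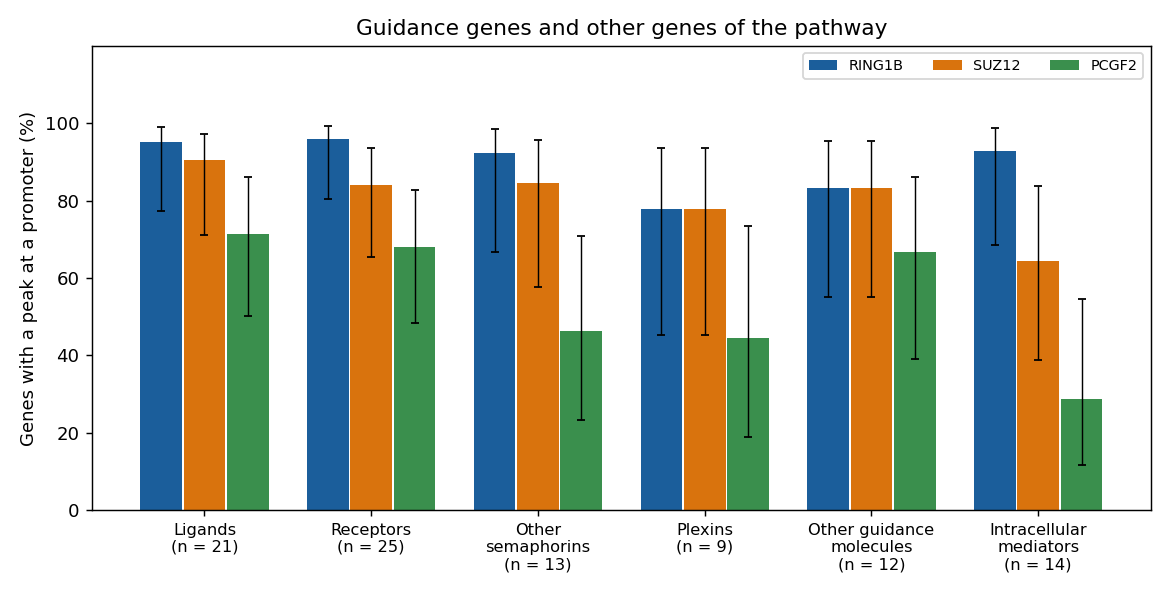
Share of genes with a peak at a promoter (y axis, percent) for RING1B, SUZ12 and PCGF2 in the guidance ligands and receptors and in 4 other groups of pathway genes, with 95% Wilson intervals over genes as error bars. RING1B shares lie between 77.8% and 96.0% in every group, and the lowest PCGF2 share, 28.6%, is that of the intracellular mediators.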

How the data were processed

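The deposited files are 3 peak lists whose only values are start and end in base pairs on mm10. To make them, the authors mapped read pairs onto a concatenation of mm10 and hg19 by Bowtie 2, discarded PCR duplicates (Sambamba) and called broad peaks by MACS2 with Input as control. Blacklisted regions were excluded. For RING1B and SUZ12, replicates were merged and a peak had to occur in both lines. RING1B peaks also had to lose signal in tamoxifen-treated PRC1CKO cells, so that list can lack sites. For PCGF2, a peak had to occur in each replicate.

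Here, coordinates (counted from 1) were compared with RefSeq GRCm38.p6, the assembly of mm10, and 0 peaks ran past a chromosome end. Curated TSSs, overlaps, Wilson, Newcombe and binomial median intervals (Python 3.11.15 with SciPy 1.17.1) and sequences (samtools 1.23.1) were computed by gene. No p-value was computed, since lists carry no replicates. All 46 members are described. Other genes are named only where their TSS lies in or near a member peak, or as the widest or unbound of a pathway group. Members and lists were chosen with earlier results of these data known. On simulated intervals, 200 of 200 planted overlaps of 1 bp were found. The unmapped per-sample columns numbered 0.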

Additional observations from a re-analysis of the deposited data

How the results depend on the processing

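Each of 12 results was recomputed with other promoter windows (500, 1000 and 5000 bp, or the TSS itself), TSS choices, peak filters, coverage and merging. All 133 of these values stayed within 1.5 times the count, or within the interval, given in the report. These limits are wide, and the intervals measure counting error over genes rather than processing, so staying within them does not show that a result is stable. Counts ranged from 43 to 45 members for RING1B, 36 to 40 for SUZ12, 28 to 33 for PCGF2 and 27 to 33 for all 3. The wider window added Sema3g for RING1B and Epha10 for PCGF2, and predicted transcripts added Robo1 for PCGF2. Robo2 lost all 3 when only the TSS with most transcripts was used. The difference between ligands and receptors ranged from -15.6 to 7.43 points for PCGF2, so its sign depended on the setting. For SUZ12 it ranged from 5.71 to 18.5 points, and all these values lay within the intervals reported. The ligand minus receptor difference in median RING1B width ranged from -1010.5 to -911.5 bp. With a CpG window chosen after seeing the data (500 bp on each side in place of 2500 bp), the median CpG observed/expected of members moved from 0.461 to 0.693, by construction closer to the TSS. No paired analysis was possible because replicates were combined before the peaks were deposited, which also left no replicate to omit. Read depth per peak was unknown, so absence from a list does not show absence of the protein.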
